A study of Mus musculus with 15 samples.

Results

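The genes described here encode proteins that neutrophils carry: S100a8 and S100a9, which form calprotectin, and the granule genes Lcn2, Mpo, Ngp, Camp, Ltf, Mmp8, Mmp9 and Elane. Members were found by gene symbol, taking every probe set that the platform annotation pairs with exactly 1 of these genes. All 10 genes were measured, by 11 of the 20380 single-gene probe sets and as 10 of 12393 genes, in each of 2 value tables. Mmp9 was measured by 2 probe sets and each other member by 1.

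RNA from whole mouse hearts taken 48 h after surgery was hybridised to expression arrays, 1 array per sample, in a study of how sepsis depresses the heart. Septic mice underwent caecal ligation and perforation (CLP): the blind end of the large bowel was tied and pierced with a needle, which lets gut contents leak into the abdomen. Sham mice had the caecum mobilised and put back; all mice had isoflurane anaesthesia, buprenorphine and saline, and later ketamine and xylazine with a catheter placed through the carotid artery. The 15 arrays form 5 groups of 3. Wild-type C57/BL6 mice gave the Max Dep and Min Dep groups, both after CLP, and a sham group. Congenic B6.129P2-Nos2tm1Lau/J mice, which lack the inducible nitric oxide synthase in every cell of the body, gave a CLP and a sham group. The labels do not spell out Min Dep and Max Dep, and give no age or sex. Hearts were emptied of blood and no cells were sorted, so in all that follows a change in the number of cells of a type and a change in RNA per cell cannot be told apart.

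Neutrophils are short-lived phagocytes released from the bone marrow, and they build their granules in sequence as they mature. Primary granules, filled first in promyelocytes, hold myeloperoxidase and elastase; secondary and tertiary granules follow and hold lactoferrin, cathelicidin, lipocalin and the matrix metalloproteinases. Calprotectin fills the cytosol of mature neutrophils and is also made by monocytes. Transcripts of primary granule proteins are therefore mostly a feature of marrow precursors, whereas those of calprotectin persist in circulating cells.

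S100a8 and S100a9 lie next to each other on mouse chromosome 3 with 0 annotated genes between them. The bases just before the transcription start are printed for 4 members whose values the results turn on: both calprotectin genes, Ngp as the secondary granule gene most like them across arrays, and Mpo, whose septic groups stood in the other order. The sequences are from RefSeq (build GRCm38.p6), each 250 bases ending at the base before the annotated start, on the strand of the gene. They were read at chr3:90668821-90669070 (plus strand) for S100a8, chr3:90695722-90695971 (minus strand) for S100a9, chr9:110419558-110419807 (plus strand) for Ngp and chr11:87793534-87793783 (plus strand) for Mpo. Capitals mark matches on either strand to TTNNGNAA, letters typical of C/EBP sites, to AGGAAGT, letters typical of PU.1 and other ETS sites, or to TATAAA, the TATA box.
S100a8: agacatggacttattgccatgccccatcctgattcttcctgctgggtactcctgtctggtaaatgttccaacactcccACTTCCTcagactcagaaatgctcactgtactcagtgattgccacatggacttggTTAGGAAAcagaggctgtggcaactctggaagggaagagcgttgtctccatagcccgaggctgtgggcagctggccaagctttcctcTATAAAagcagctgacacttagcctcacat
S100a9: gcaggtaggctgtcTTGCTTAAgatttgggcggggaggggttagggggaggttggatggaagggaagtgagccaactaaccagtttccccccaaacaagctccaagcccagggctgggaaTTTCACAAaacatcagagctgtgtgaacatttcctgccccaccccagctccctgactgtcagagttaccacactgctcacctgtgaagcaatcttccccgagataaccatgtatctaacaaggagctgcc
Ngp: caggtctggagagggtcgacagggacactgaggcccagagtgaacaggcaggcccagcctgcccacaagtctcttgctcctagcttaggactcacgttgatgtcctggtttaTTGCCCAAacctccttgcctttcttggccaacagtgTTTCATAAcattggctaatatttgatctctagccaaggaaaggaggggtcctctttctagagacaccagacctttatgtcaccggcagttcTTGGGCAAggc
Mpo: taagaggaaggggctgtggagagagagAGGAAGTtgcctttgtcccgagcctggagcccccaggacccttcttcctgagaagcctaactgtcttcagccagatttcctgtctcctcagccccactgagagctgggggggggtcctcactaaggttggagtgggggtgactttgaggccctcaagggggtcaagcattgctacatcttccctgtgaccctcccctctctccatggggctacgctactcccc
C/EBP factors and PU.1 are the main regulators of granulocyte genes in the marrow. Promoters were listed for 9 members, Mmp9 not among them. The C/EBP-type letters stood in 6 of these 9 windows (S100a8, S100a9, Lcn2, Ngp, Ltf and Mmp8), against 36.8% of 32851 mouse promoters of the same length. Ngp held 3 matches, the nearest 11 bases before the start, and S100a9 held 2. The ETS-type letters stood in 4 of 9 windows (S100a8, Mpo, Mmp8 and Elane), against 7.69% of promoters. TATAAA stood in the window of S100a8, 30 bases before the start, and in no other of the 9, against 12.4% of promoters. A match describes these letters and is not a measured binding site.

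Wild-type values are standardised scores without levels or folds, in which each probe set has the same spread over the 9 arrays, so a small and a large change look alike. Where every septic array has one value and every sham array another, this scaling allows at most 2.0 units between 6 septic and 3 sham arrays, and 2.31 between 2 groups of 3 with the other group midway. The per-array step that followed moves values slightly past these limits. Knockout values behave as log differences whose base is not given. They come from another array model and a separate table, so genotype cannot be told apart from table, and no test was made between genotypes. Standardised values cannot show whether a marker is present, so the labelled tissue was not checked against heart muscle markers.

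Calprotectin rose in septic wild-type hearts. S100a8 and S100a9, partners in a calcium-binding heterodimer that withholds zinc and manganese from microbes and acts as an alarm signal, stood higher on all 6 septic arrays than on any of the 3 sham arrays. These were the 2 members of 10 that passed an adjusted p of 0.05 for CLP against sham, both upward, where 0.339% of all 12393 genes were called higher (limma, unmoderated statistics on 6 degrees of freedom, Benjamini-Hochberg over all genes).

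S100a8 measured 0.82, 1.36 and 1.06 on the Max Dep arrays and 0.58, -0.04 and 0.15 on the Min Dep arrays, against -1.63, -0.83 and -1.38 on the sham arrays. The 3 groups did not overlap: every Max Dep array lay above every Min Dep array, and every Min Dep array above every sham array. The difference of CLP from sham was 1.93 ± 0.24 standardised units (SE; adjusted p = 0.0395, limma), close to the most that the scaling allows.

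S100a9 measured 0.73, 1.29 and 1.11 on the Max Dep arrays and 0.64, 0.09 and 0.03 on the Min Dep arrays, against -1.76, -0.85 and -1.19 on the sham arrays. The order of the groups was that of S100a8, again without overlap, and Min Dep replicate 1 came nearest to the Max Dep arrays. The difference of CLP from sham was 1.92 ± 0.26 (SE; adjusted p = 0.0498, limma).

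In values with the per-array step undone, the contrast of CLP with sham held 86.0% of the variance of S100a8 over the 9 arrays and 85.1% of that of S100a9. These shares ranked 113 and 133 among 12393 genes. Both calls sat near the threshold and did not outlast every setting. With moderated statistics the adjusted p was 0.0969 for each. Leaving out single arrays kept S100a8 past the threshold only without Min Dep replicate 2, with differences between 1.76 and 2.16. The lowest of these came without sham replicate 1, the lowest sham array for both genes, where S100a9 differed by 1.67. That array also differed from the other wild-type arrays in sex-linked genes, as given with Ltf below, and the part of this was not tested. The control probe sets at the 5' end of Gapdh and Actb minus those at the 3' end, a sign of RNA integrity, averaged -0.71 ± 1.19 in Max Dep, -0.19 ± 0.33 in Min Dep and 0.90 ± 0.75 in sham hearts (SD, n = 3 each). With this value as a covariate the S100a8 difference was 2.03 (adjusted p = 0.174, limma) and that of S100a9 was 2.06 (adjusted p = 0.194, limma).

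**Figure D1:**
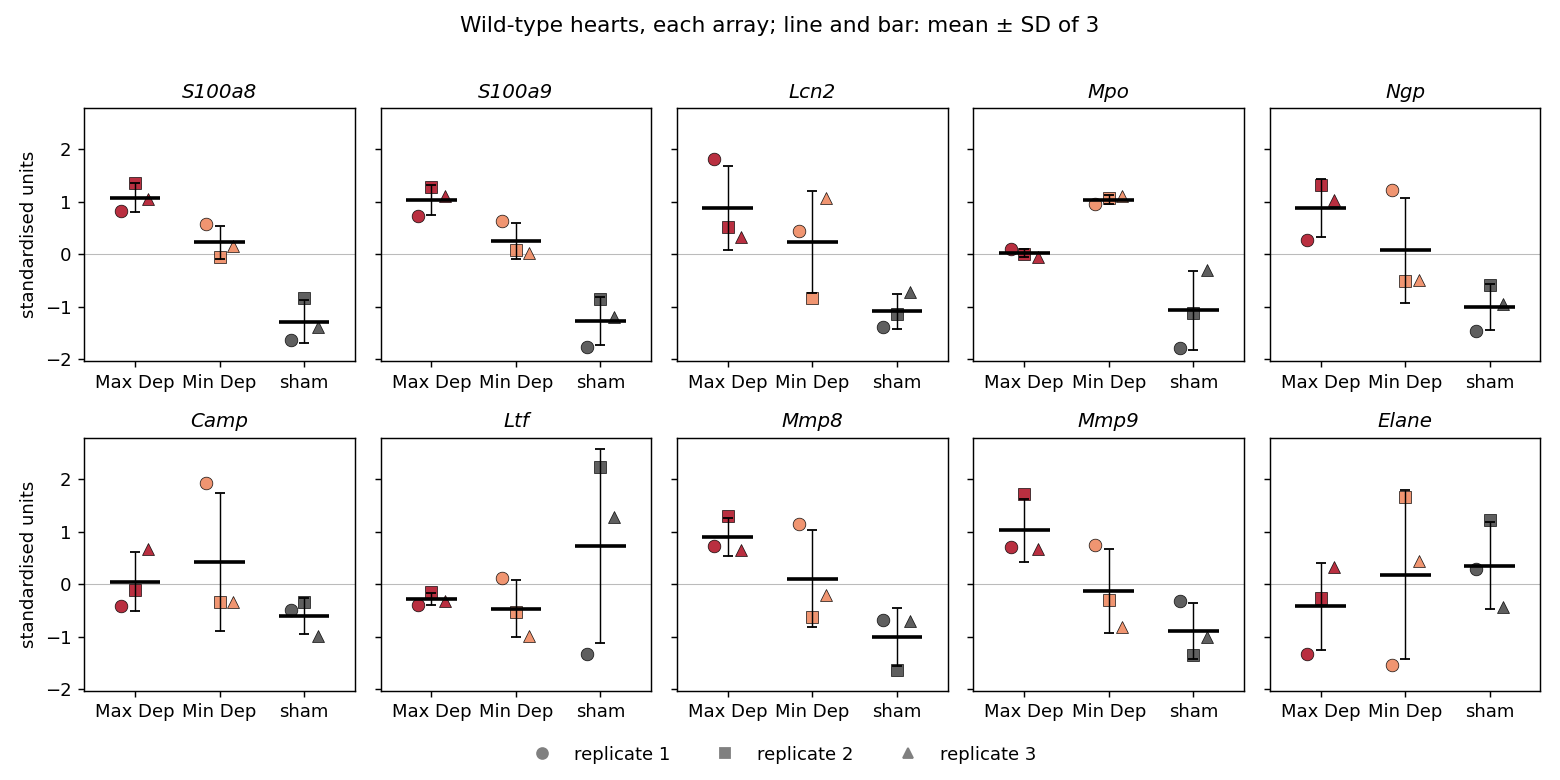
Standardised values of the 10 genes on each of the 9 wild-type arrays, grouped as Max Dep, Min Dep and sham; points are arrays, the line and bar are the mean and SD of 3. The 3 groups stand apart for S100a8, S100a9 and Mpo, whereas Ltf and Elane spread widely within groups.

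The next comparisons set each septic group against sham on its own; both use the same sham arrays. In Max Dep hearts S100a8 rose by 2.36 ± 0.28 (SE; adjusted p = 0.0417, limma), the 1 member called of 10 where 0.29% of all genes were called higher. S100a9 differed by 2.31 ± 0.30 (SE; adjusted p = 0.0527, limma), just outside the threshold. The S100a8 call was lost with moderated statistics (adjusted p = 0.133) and whenever any 1 of the 9 arrays was left out. In Min Dep hearts no member passed, where 0.0565% of all genes were called and 0.0161% were called higher. There S100a8 differed by 1.51 ± 0.28 (adjusted p = 0.0871, limma) and S100a9 by 1.52 ± 0.30 (adjusted p = 0.0949, limma). These and Mpo were the 3 members with an unadjusted p under 0.05, all higher, where 7.65% of all genes were.

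Neither primary granule gene passed in any comparison. Mpo encodes myeloperoxidase, which makes hypochlorous acid from hydrogen peroxide and chloride. It measured 0.10, 0.01 and -0.05 on the Max Dep arrays and 0.96, 1.07 and 1.11 on the Min Dep arrays, against -1.79, -1.11 and -0.30 on the sham arrays. Here the Min Dep arrays were the highest, the Max Dep arrays stood between, and no 2 groups overlapped.

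Within each septic group the 3 Mpo values were tight, with an SD of 0.08 in Max Dep and 0.08 in Min Dep hearts, against 0.75 in sham hearts. The Mpo difference from sham was 1.60 ± 0.31 for all CLP arrays (SE; adjusted p = 0.0725, limma), 1.08 ± 0.36 for Max Dep (adjusted p = 0.220) and 2.11 ± 0.36 for Min Dep (adjusted p = 0.0773).

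Elane, which encodes neutrophil elastase, a serine protease of the same granules, measured -1.33, -0.27 and 0.32 on the Max Dep arrays and -1.54, 1.65 and 0.43 on the Min Dep arrays, against 0.28, 1.21 and -0.45 on the sham arrays. The groups overlapped throughout, and the Min Dep arrays held both the lowest and the highest value. The difference of CLP from sham was -0.47 ± 0.81 (SE; adjusted p = 0.813, limma).

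Genes of the secondary and tertiary granules were mostly higher on septic arrays, but none of the 6 passed the test. Ngp encodes neutrophilic granule protein, a cystatin-like protein of mouse neutrophils. It measured 0.28, 1.33 and 1.04 on the Max Dep arrays and 1.23, -0.51 and -0.48 on the Min Dep arrays, against -1.45, -0.59 and -0.95 on the sham arrays. All 6 septic values lay above all sham values, although Min Dep replicates 2 and 3 did so by a small margin. The difference was 1.48 ± 0.50 (SE; adjusted p = 0.196, limma).

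Mmp8, neutrophil collagenase, measured 0.72, 1.30 and 0.64 on the Max Dep arrays and 1.14, -0.63 and -0.21 on the Min Dep arrays, against -0.68, -1.64 and -0.71 on the sham arrays. It showed the pattern of Ngp: Min Dep replicate 1 lay among the Max Dep values and the other Min Dep arrays near sham, without overlap with sham. The difference was 1.50 ± 0.46 (SE; adjusted p = 0.171, limma).

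Mmp9, gelatinase B of the tertiary granules, averaged over its 2 probe sets 0.70, 1.72 and 0.66 on the Max Dep arrays and 0.75, -0.31 and -0.82 on the Min Dep arrays, against -0.32, -1.36 and -1.01 on the sham arrays. Min Dep replicate 3 fell inside the sham range, so CLP and sham overlapped, but the Max Dep arrays did not overlap sham. The 2 probe sets gave differences of 1.50 and 1.20, and the mean gave 1.35 ± 0.46 (SE; adjusted p = 0.203, limma).

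Lcn2 encodes lipocalin-2, which binds bacterial siderophores and so keeps iron from bacteria, and which many tissues other than neutrophils also make in inflammation. It measured 1.81, 0.51 and 0.33 on the Max Dep arrays and 0.45, -0.83 and 1.07 on the Min Dep arrays, against -1.39, -1.14 and -0.72 on the sham arrays. Min Dep replicate 2 lay within the sham range and the other septic arrays above it. The difference was 1.64 ± 0.53 (SE; adjusted p = 0.186, limma).

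Camp encodes the mouse cathelicidin precursor, a source of an antimicrobial peptide. It measured -0.41, -0.12 and 0.67 on the Max Dep arrays and 1.93, -0.33 and -0.34 on the Min Dep arrays, against -0.50, -0.35 and -0.999 on the sham arrays. One septic array, Min Dep replicate 1, stood far above the others, and Max Dep replicate 1 lay within the sham range. The difference was 0.85 ± 0.60 (SE; adjusted p = 0.519, limma).

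Ltf encodes lactoferrin, an iron-binding protein of secondary granules that glandular epithelia also secrete. It measured -0.39, -0.16 and -0.32 on the Max Dep arrays and 0.11, -0.53 and -0.98 on the Min Dep arrays, against -1.34, 2.22 and 1.27 on the sham arrays. The sham arrays held both the highest and the lowest values of the 9, with all septic arrays between them. The difference was -1.10 ± 0.79 (SE; adjusted p = 0.527, limma). Sham replicate 1, the low one, also differed from the other 8 arrays in sex-linked genes, with Xist at 2.64 (others from -0.53 to -0.17) and the Y-linked Uty at -2.64 (others from -0.50 to 1.04). It was also the lowest sham array for S100a8, S100a9, Lcn2, Mpo and Ngp. The part of the sex-linked difference in the values of any member was not tested. Without that array the Ltf difference was -2.13 (adjusted p = 0.119, limma).

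Across the 10 genes, 8 differences of CLP from sham were positive, against 50.8% of all genes, and the median difference was 1.49, against 0.02 over all genes. At an unadjusted p under 0.05, 7 members were higher and 0 lower, where 9.23% of all genes were higher and 9.38% lower. For 5 members the 6 septic and 3 sham arrays did not overlap, higher in CLP each time, where 5.89% of all genes did so. For Max Dep against sham 7 members had an unadjusted p under 0.05 and were higher (8.87% of genes) and 7 did not overlap (13.8% of genes), with a median difference of 1.89 against -0.09 over all genes. For Min Dep against sham 6 did so (10.9% of genes), with a median of 1.09 against 0.12.

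Max Dep and Min Dep hearts were also compared directly. No member passed, and 0.0% of all genes were called; at an unadjusted p under 0.05, 2 members were higher (5.21% of genes) and 1 lower (4.6% of genes). S100a8 differed by 0.85 ± 0.28 (SE; 95% confidence interval 0.18 to 1.53; adjusted p = 0.443, limma) and S100a9 by 0.79 ± 0.30 (adjusted p = 0.491), both with all Max Dep arrays above all Min Dep arrays, which 7.89% of all genes did. Mpo went the other way, at -1.03 ± 0.36 (SE, interval -1.90 to -0.16, adjusted p = 0.457, limma). All Max Dep arrays lay below all Min Dep arrays for Mpo, which 7.43% of genes did. The fit pools the spread within all wild-type groups, sham included. The SD of Mpo was 0.08 in Max Dep and 0.08 in Min Dep hearts, against 0.75 in sham hearts. Its SE, interval and p here therefore reflect mostly the sham arrays, not the spread of the groups compared. The largest difference was that of Mmp9 at 1.15 ± 0.53 (adjusted p = 0.532), whose arrays overlapped. The other members lay between -0.61 for Elane and 0.80 for Ngp, with adjusted p from 0.634 to 0.954.

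**Figure D2:**
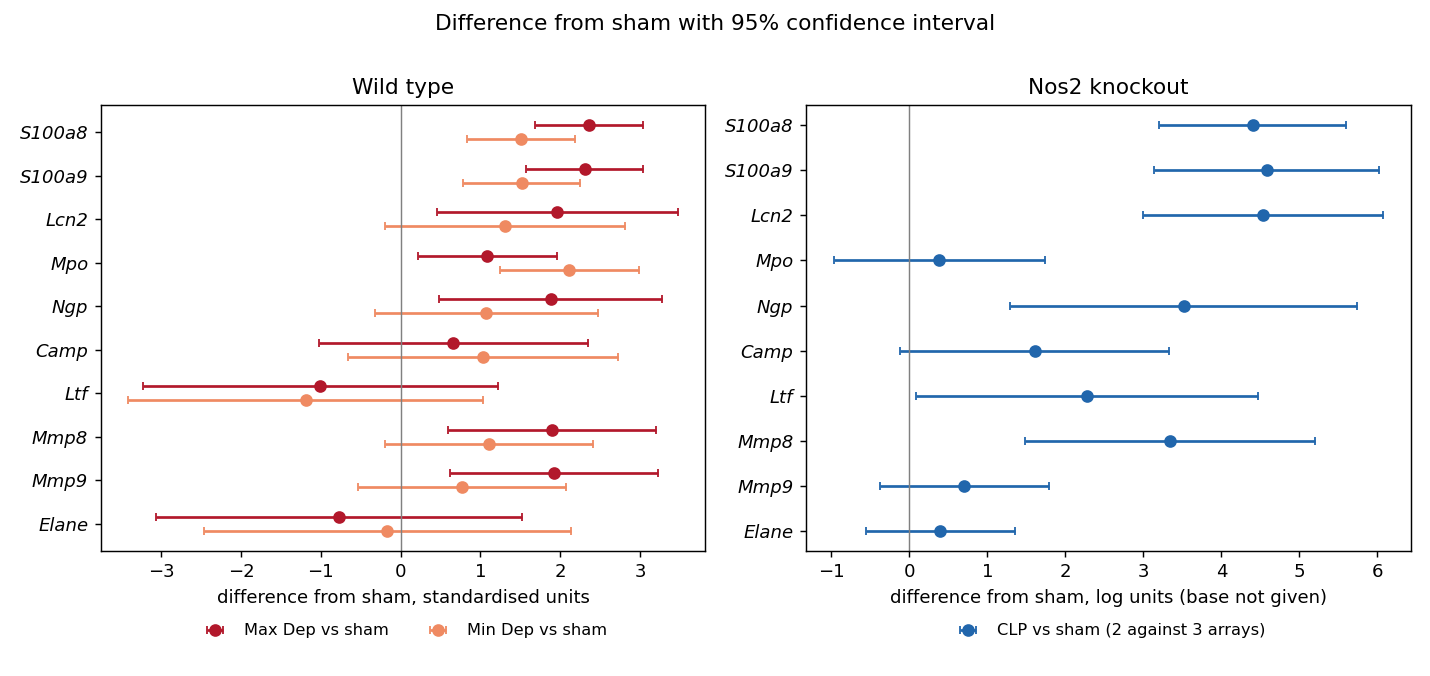
Difference from sham with its 95% confidence interval for each gene: left, wild-type Max Dep and Min Dep hearts in standardised units; right, Nos2 knockout CLP hearts (2 arrays against 3) in log units of unknown base. In wild type Mpo stands at 1.08 in Max Dep and 2.11 in Min Dep, whereas S100a8 stands at 2.36 in Max Dep and 1.51 in Min Dep; in the knockout S100a8, S100a9 and Lcn2 stand at 4.40 to 4.58; the panels have different scales.

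The member values did not all follow 1 pattern across the wild-type arrays. Signal over background was not available, so the part of noise in this was not tested. Over the 9 wild-type arrays S100a8 and S100a9 had a Pearson r of 0.994 with each other. With their mean Ngp had an r of 0.916, Mmp8 0.827, Mmp9 0.798, Lcn2 0.757, Mpo 0.601, Camp 0.517, Ltf -0.22 and Elane -0.31; these 9 arrays hold the group differences themselves, and r is given as a description. Min Dep replicate 1 was set apart from the other Min Dep arrays: its mean over the 6 secondary and tertiary granule genes was 0.93, against -0.53 and -0.29 on Min Dep replicates 2 and 3. On the Max Dep arrays that mean was 0.45, 0.77 and 0.50, and on the sham arrays -0.95, -0.48 and -0.52. The primary granule mean of Mpo and Elane was -0.29 on Min Dep replicate 1 and 1.36 and 0.77 on replicates 2 and 3. That order came from Elane, since Mpo was nearly level on these arrays (0.96, 1.07 and 1.11).

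Each septic wild-type array had 7 or 8 of the 10 members above every sham array, where between 29.5% and 35% of all genes were. The median over the members was 0.49, 0.90 and 0.65 on the Max Dep arrays and 0.70, -0.32 and -0.09 on the Min Dep arrays.

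**Figure D3:**
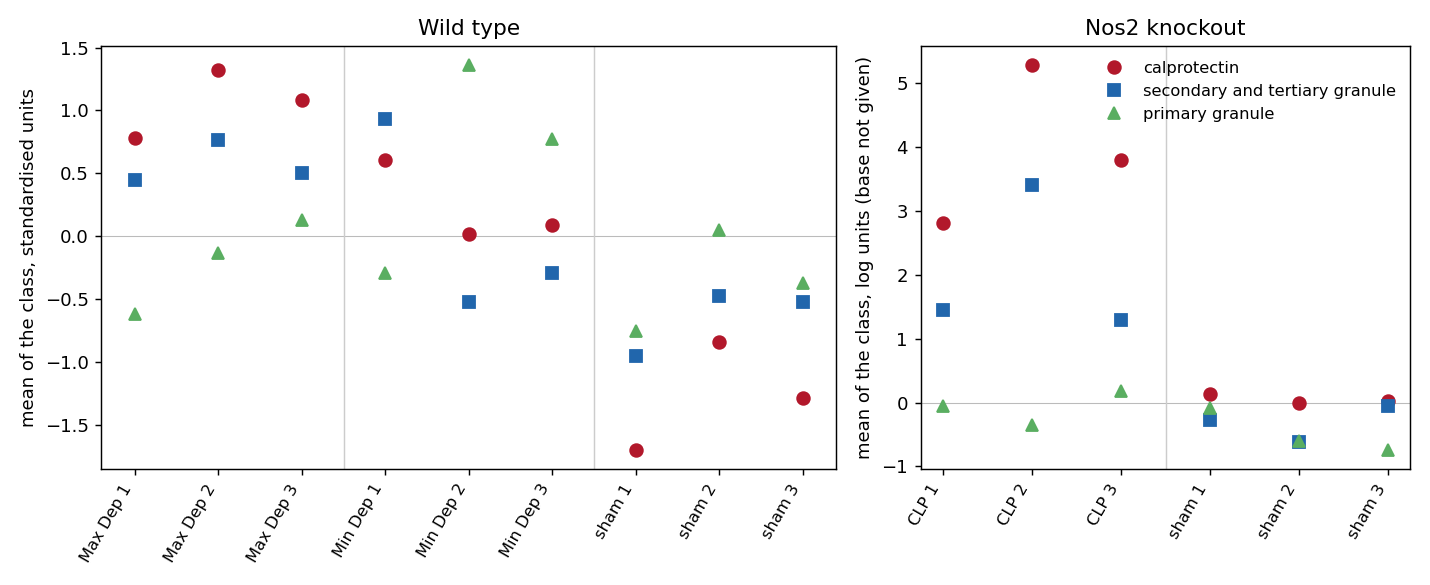
Mean of each class of genes on each array: calprotectin (S100a8 and S100a9), secondary and tertiary granule (Lcn2, Ngp, Camp, Ltf, Mmp8, Mmp9) and primary granule (Mpo, Elane), with wild type in standardised units and Nos2 knockout in log units of unknown base. Calprotectin is above sham on every septic array, and the primary granule mean is highest on Min Dep replicate 2 at 1.36.

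In Nos2 knockout hearts the same 2 calprotectin genes and Lcn2 had the largest differences of the members between CLP and sham, but 0 members and 0.0% of all genes passed the test in either direction. The column of CLP replicate 1 follows those of the other CLP arrays (R squared 0.745 on the other 5 arrays) and lies between them in 76.0% of probe sets, where each sham column lay between the other 2 sham columns in 32.8% to 34.4%. This column may not be an independent sample. It was left out of the fit, so 2 CLP arrays were set against 3 sham arrays (limma with eBayes, Benjamini-Hochberg over all genes); its values are given with the others.

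S100a8 measured 2.75, 5.03 and 3.83 log units on the CLP arrays, against 0.02, -0.01 and 0.08 on the sham arrays. S100a9 measured 2.87, 5.53 and 3.77 on the CLP arrays, against 0.24, 0.00 and -0.03 on the sham arrays. Lcn2 measured 2.63, 5.27 and 3.52 on the CLP arrays, against 0.02, 0.24 and -0.67 on the sham arrays. All CLP arrays lay far above all sham arrays for these genes, and in each the CLP order was replicate 2, then 3, then 1. Exact 0 occurs in 4 of the 6 columns in 2992 to 3122 probe sets each, and sham replicate 1 holds the value 0.018 in 3072 probe sets, S100a8, Lcn2 and Ngp among them, so the spread of the sham values is not a plain replicate error.

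The difference of CLP from sham was 4.40 ± 0.50 log units for S100a8 (SE; adjusted p = 0.0820, limma), 4.58 ± 0.60 for S100a9 (adjusted p = 0.0820) and 4.53 ± 0.64 for Lcn2 (adjusted p = 0.0873). With all 6 arrays the differences were 3.84, 3.99 and 3.94, and these 3 members passed (adjusted p = 0.0321, 0.0421 and 0.0442, limma), where 0.936% of all genes were called higher. These p-values count CLP replicate 1 as one more independent array, which its column may not be, and are too small if it is not. The 5' minus 3' control value averaged -1.30 ± 0.67 on the knockout CLP arrays and -0.26 ± 1.53 on the sham arrays (SD, n = 3 each, CLP replicate 1 included), lower in CLP as in wild type, and its part in the differences was not tested.

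Among the other secondary and tertiary granule genes, Ngp measured 1.94, 4.68 and 1.74 on the CLP arrays, against 0.02, -1.14 and 0.20 on the sham arrays, a difference of 3.51 ± 0.92 (SE; adjusted p = 0.205, limma). Mmp8 measured 1.97, 4.28 and 1.76 on the CLP arrays, against -0.33, -0.64 and 0.00 on the sham arrays, a difference of 3.34 ± 0.77 (adjusted p = 0.165). For both, CLP replicate 2 stood well above the other CLP arrays, and those stood above every sham array.

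Ltf measured 1.11, 3.22 and 0.33 on the CLP arrays, against -1.23, -0.50 and 0.21 on the sham arrays, a difference of 2.28 ± 0.91 (SE; adjusted p = 0.400, limma). Camp measured 0.75, 2.34 and 0.37 on the CLP arrays, against 0.23, -0.97 and 0.00 on the sham arrays, a difference of 1.60 ± 0.72 (adjusted p = 0.454). Mmp9 measured 0.27, 0.66 and 0.00 on the CLP arrays, against -0.37, -0.67 and -0.09 on the sham arrays, a difference of 0.70 ± 0.45 (adjusted p = 0.633). None of the 3 overlapped sham, Mmp9 as the mean of its probe sets, but CLP replicate 3 came close to the highest sham array in each. For Mmp9 the 0.00 on CLP replicate 3, held by both probe sets, is the exact 0 that recurs in the column.

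Both primary granule genes had small differences. Mpo measured -0.25, -0.71 and 0.13 on the CLP arrays, against 0.09, -0.89 and -1.21 on the sham arrays, and the groups overlapped (0.38 ± 0.56, SE; adjusted p = 0.864, limma). Elane measured 0.16, 0.00 and 0.24 on the CLP arrays, against -0.26, -0.29 and -0.26 on the sham arrays, without overlap but within a narrow range (0.39 ± 0.40, adjusted p = 0.791). Its 0.00 on CLP replicate 2 is the exact 0 that recurs in the column.

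In all, 10 of 10 knockout differences were positive (51.5% of all genes), and 6 members had an unadjusted p under 0.05, all higher (5.83% of genes). For 9 members CLP did not overlap sham (15.0% of genes), Mmp9 among them only as the mean of its probe sets. The median difference was 2.81 log units, against 0.03 over all genes. CLP replicate 2 exceeded replicate 3 by 2.94 for Ngp, 2.88 for Ltf and 2.53 for Mmp8, against 1.21 for S100a8 and -0.84 for Mpo, so these 2 septic hearts differed more for Ngp, Ltf and Mmp8 than for S100a8, S100a9 (1.76) or Lcn2 (1.75).

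**Figure D4:**
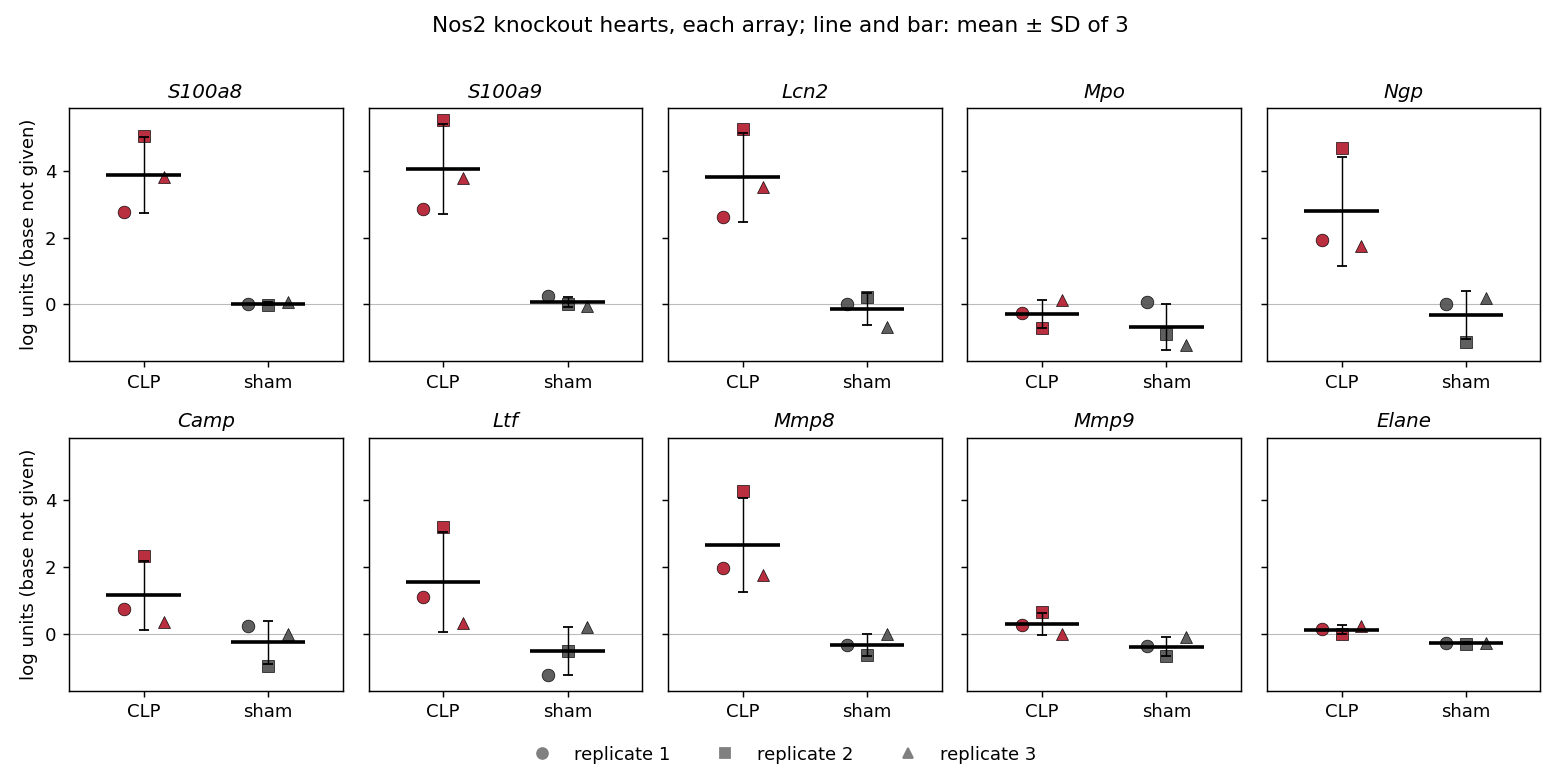
Values of the 10 genes on each of the 6 Nos2 knockout arrays in log units of unknown base, CLP left of sham; points are arrays, the line and bar are the mean and SD of 3. CLP replicate 2 is highest for 8 of the genes, and Mpo overlaps between CLP and sham.

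Other genes of the neutrophil programme, and genes around it, were counted in lists. Over the 12 pathway lists, 0 genes passed in CLP against sham in either table (limma). The genes named from each list are the 2 of largest difference in wild type, with a few others where a list divided. The 12 lists pool neutrophil genes with the ligands, adhesion molecules, receptors, inhibitors and relatives described further below. At an unadjusted p under 0.05, 17 of their 108 genes were higher and 12 lower in wild type (9.23% and 9.38% of all genes). In the knockout 27 were higher and 10 lower (5.83% and 6.08% of all genes). Among the lower genes, only Cebpb in wild type (-1.46 ± 0.49, SE) came from the lists of granule partners, surface receptors, oxidase subunits, late neutrophil genes or transcription factors. Of 5 primary granule partners the median wild-type difference was 0.44, with Ms4a3, a marker of granulocyte precursors, at 1.04 ± 0.61 and Prtn3, proteinase 3, at -1.03 ± 0.68; the knockout median was 0.16. Of 14 secondary and tertiary granule partners 12 were positive in each table, with a median of 0.77 in wild type and 1.69 in the knockout. Itgam and Itgb2, the 2 chains of the integrin Mac-1, stood at 1.96 ± 0.31 (adjusted p = 0.0543, limma) and 1.73 ± 0.40 in wild type, and at 2.91 ± 0.50 and 2.17 ± 0.42 in the knockout.

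Of 14 neutrophil surface receptors 13 were positive in wild type and 12 in the knockout. Their median was 1.07 in wild type and 0.82 in the knockout. In wild type they were led by the Fc receptor Fcgr3 at 1.80 ± 0.36 and the formyl peptide receptor Fpr2 at 1.76 ± 0.46. The list divided in the knockout: Fcgr3 stood at 3.01 ± 0.56 and Fpr2 at 3.31 ± 0.45, against 0.18 ± 0.40 for Cxcr2 and -0.17 ± 0.52 for Csf3r. In wild type Cxcr2 stood at 0.52 ± 0.66 and Csf3r at 1.02 ± 0.77. Of 5 subunits of the phagocyte NADPH oxidase, which makes superoxide, 4 were positive in wild type and 5 in the knockout, with a median of 1.23 in wild type and 1.84 in the knockout; Rac2 stood at 1.87 ± 0.46 and Ncf4 at 1.57 ± 0.61. Of 12 stefins and late neutrophil genes 5 were measured, of which 5 were positive in wild type and 4 in the knockout, with a median of 1.18 in wild type and 1.86 in the knockout, among them Alox5ap, the activator of leukotriene synthesis, at 1.88 ± 0.30 (adjusted p = 0.0543, limma) and Wfdc21 at 1.59 ± 0.52. Of 7 granulocyte transcription factors 3 were positive in wild type and 6 in the knockout, with a median of -0.96 in wild type and 0.51 in the knockout; Spi1, which encodes PU.1, stood at 1.50 ± 0.62 and Cebpa at -1.55 ± 0.67. The median over all genes was 0.02 in wild type and 0.03 in the knockout.

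Lists of ligands, receptors and inhibitors around the members were counted in the same way. Of 11 neutrophil-attracting chemokines and cytokines the median was 0.25 in wild type and 1.05 in the knockout, with Csf3 at 1.15 ± 0.72 and Cxcl2 at 0.91 ± 0.81 in wild type. In the knockout 8 were positive and 3 negative. The largest there were Ppbp at 3.39 ± 0.46 and Pf4 at 2.61 ± 0.41, both also counted among the platelet markers below. Csf3 stood at -0.25 ± 0.41 and Cxcl2 at 2.30 ± 0.70 in the knockout. The 7 platelet markers had a knockout median of 0.72. Of 8 endothelial adhesion molecules the median was -0.64 in wild type and -0.48 in the knockout, with Icam2 at -1.84 ± 0.49 and Pecam1 at -1.50 ± 0.58. Of 7 receptors of calprotectin and lipocalin it was 0.10 in wild type and -0.37 in the knockout; Ager, which encodes RAGE, stood at -1.57 ± 0.62 and Cd14 at 1.33 ± 0.64.

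Of 9 inhibitors of granule proteases the median was -0.96 in wild type and -1.26 in the knockout, but the list divided, with 4 positive and 5 negative in each table. The positive ones were Serpina3n (1.67 in wild type and 3.66 in the knockout), Slpi (1.45 and 0.30), Timp1 (0.66 and 1.57) and Serpinb1a (0.50 and 0.16). Timp3 and Reck, which restrain matrix metalloproteinases, stood at -1.95 ± 0.34 (adjusted p = 0.0618, limma) and -1.85 ± 0.41 in wild type, and at -5.08 ± 1.10 and -2.55 ± 0.63 in the knockout. Among relatives of the members the median wild-type difference was -0.42 for 11 other S100 genes (S100a13 at 1.47 ± 0.60, S100a1 at 1.42 ± 0.51) and -0.19 for 14 other matrix metalloproteinases (Mmp2 at -1.62 ± 0.53, Mmp3 at 1.31 ± 0.61), against 1.49 for the members. Of these S100 genes 3 were positive and 8 negative in wild type, S100a10 at -1.37 ± 0.26 among the negative ones. In the knockout the medians were 0.13 for the S100 genes and -0.32 for the metalloproteinases.

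Markers of other cell types were measured beside the members. Of 15 monocyte and macrophage markers 15 were positive in wild type (50.8% of all genes) and 13 in the knockout (51.5%). In wild type 2 of them rose in CLP against sham, where 0.339% of all genes were called higher: Fcer1g by 2.03 ± 0.22 (SE; adjusted p = 0.0307, limma) and Tyrobp by 2.01 ± 0.19 (adjusted p = 0.0290), signalling adaptors that neutrophils also express. With moderated statistics neither passed. The mean over this list was 0.34 to 1.23 on the Max Dep, -0.16 to 0.60 on the Min Dep and -1.30 to -0.49 on the sham arrays. These ranges stood in the group order of the calprotectin genes, but unlike there Max Dep and Min Dep overlapped. In the knockout the mean over the list was 1.20 to 2.00 on the CLP and -0.61 to 0.11 on the sham arrays. Monocytes make calprotectin too, and the part of these cells in the S100a8 and S100a9 values, or in those of the neutrophil lists, was not tested. The median wild-type difference was -0.11 for 9 T and natural killer cell, -0.24 for 7 B cell, -1.30 for 5 red blood cell, 0.37 for 7 platelet, -0.28 for 9 eosinophil and mast cell and -0.32 for 12 heart muscle markers, of which 0 passed; the largest for heart muscle was that of Tnnc1, at -1.95 ± 0.32.

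Outside the members, the 5 genes most like the mean of S100a8 and S100a9 over the 9 wild-type arrays were Parm1 (r = 0.992), P2ry6, a nucleotide receptor (0.976), Mrps24, a mitochondrial ribosomal protein (0.969), Prr13 (0.969) and Ccnl2, a cyclin (0.966). With 12393 genes and 9 arrays such values of r are a description.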

How the data were processed

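Total RNA of 15 whole mouse hearts was measured on short oligonucleotide arrays, 1 per sample, in 5 groups of 3 taken from the sample titles; replicate numbers follow the order of deposit and pair nothing. No label says that arrays of a group are separate litters or days, so p-values measure the spread between these arrays, whose number limits the precision. The software that made the values was not given in the sources used here, and no step of it was assumed.

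The authors deposited 2 value tables of 22690 probe sets. The deposited wild-type values are a standardised score: undoing a linear step per array gave each probe set, over 9 arrays, mean 0 and SD 1.0. The deposited knockout values, from -7.78 to 8.18, are also a score, centred for each probe set and resembling a logarithm of a ratio with no stated base. Signal over background was not available.

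Control probe sets (64) were not tested. The platform annotation paired 20380 probe sets with 1 gene, 691 with several (none of them a member) and 1555 with none; 20351 were matched by gene identifier to update symbols. Values of a gene's probe sets were averaged. limma 3.58.1 in R 4.3.3 was fitted to all 12393 genes, unmoderated over the 9 wild-type arrays and with eBayes for the knockout arrays without CLP replicate 1, with Benjamini-Hochberg adjustment and a threshold of 0.05. The code was tested on simulated data. Alternatives were moderation, single probe sets, undone array scaling, a control covariate, only the arrays compared, all 6 knockout arrays and leaving out each array.

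Promoters came from a RefSeq table (GRCm38.p6), with pandas 2.3.3. Named genes were all members, the called genes and the 2 of largest difference of each list, and the 5 genes most like calprotectin. A few further list genes were named to show where a list divided. Members and lists were chosen with earlier results of these data known.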

Additional observations from a re-analysis of the deposited data

Results flagged for a closer look

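The column of knockout CLP replicate 1 was left out of the fit and lay above every knockout sham array for 9 of 10 members. The column follows the other CLP columns and may not be an independent sample, so its values are not separate support for theirs. Its values were 2.75 log units for S100a8, 2.87 for S100a9, 2.63 for Lcn2, 1.97 for Mmp8, 1.94 for Ngp, 1.11 for Ltf, 0.75 for Camp, 0.27 for Mmp9 and 0.16 for Elane. Mpo, at -0.25, lay inside the sham range. For S100a8, S100a9 and Lcn2 the column lay below both other CLP arrays, and for the other 7 members between them, as it does in 76.0% of all probe sets; on that array 23.7% of all genes lay above every sham array. Dixon's test over the 6 wild-type CLP arrays, Max Dep and Min Dep together, flagged no array in any of the 11 member probe sets. Differences between the 2 groups widen the range it uses, so it cannot show that no array stood apart within its own group. Camp on Min Dep replicate 1, at 1.93, was not flagged.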

How the results depend on the processing

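No paired analysis was possible because the labels give no replicate numbers shared between groups. With eBayes 0 members and 0 genes were called in each wild-type comparison. With every probe set tested, 481, 210 and 105 genes were called for CLP, Max Dep and Min Dep against sham, and 2 members for Max Dep, S100a9 being added (adjusted p = 0.0411, limma). With the array scaling undone these were 179, 47 and 27 genes, 2 genes for Max Dep against Min Dep, and 0 members for Max Dep (S100a8 adjusted p = 0.0600, limma). With the control covariate 1, 0 and 2 genes and 0 members were called. With only the 6 arrays compared, 7 genes and 0 members were called for Max Dep and 1 gene for Min Dep. With all 6 knockout arrays 3 members and 295 genes were called. The main counts were 89, 56, 7, 0 and 0 genes for CLP, Max Dep and Min Dep against sham, Max Dep against Min Dep and knockout CLP. Leaving out 1 array gave 0 to 1 members and 0 to 186 genes for CLP, 0 to 0 members and 0 to 26 genes for Max Dep, 0 to 68 genes for Min Dep, 0 to 1 for Max Dep against Min Dep and 0 to 0 in the knockout; fewer arrays leave fewer degrees of freedom. Most genes were called without Min Dep replicate 2. Signs turned for members that never passed the threshold. Leaving out 1 array gave Elane differences of -0.90 to 0.69 in Min Dep against sham, positive when sham replicate 2 (0.26) or Min Dep replicate 1 was left out. For Max Dep against Min Dep it gave -0.75 to 0.38 for Camp, positive when Min Dep replicate 1 was left out; -1.47 to 0.13 for Elane, positive when Min Dep replicate 2 was; and -0.075 to 0.47 for Ltf, negative when Min Dep replicate 3 was, and -0.060 with the scaling undone. In the knockout it gave -0.034 to 0.80 for Mpo, negative when CLP replicate 3 was left out. The cause of the other changes was not tested. The signs of S100a8, S100a9, Lcn2, Ngp, Mmp8 and Mmp9 were the same in each alternative run.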

Other observations

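The 5 genes most like calprotectin over the wild-type arrays did not behave alike in the knockout table, which is independent of how they were chosen. Parm1 differed between CLP and sham by 3.50 ± 0.63 log units (SE; adjusted p = 0.108, limma) and P2ry6 by 3.01 ± 0.47 (adjusted p = 0.0924). Prr13 differed by 1.76 ± 0.61 (adjusted p = 0.323) and Mrps24 by 0.73 ± 0.45 (adjusted p = 0.613). Ccnl2 had the opposite sign, at -2.78 ± 1.07 (adjusted p = 0.382), and none of the 5 passed.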
